A study of Homo sapiens with 15 samples.

Results

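The genes described here are 9 human genes read in all 15 libraries of a study of CARD14, a scaffold protein of keratinocytes that signals through the protease MALT1. They are TP53INP1 and TP53INP2, a related pair that share the name p53-inducible nuclear protein, and 7 established target genes of the transcription factor p53. These 7 are CDKN1A, MDM2, GDF15, BTG2, FAS, ZMAT3 and RRM2B. They were taken by symbol from a table of 28518 gene symbols. All 9 were found, and all 9 passed the filter on low counts with 14971 genes in all. The pair had been picked because both members were seen to rise strongly with mepazine in R820W cells, so the R820W mepazine values of all 9 genes are given as a description with no test, and so are the vehicle values of the pair in R820W against WT.

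The cells were HaCaT keratinocytes, a spontaneously immortalised human skin line. The line had been CRISPR-edited at CARD14, and the labels give 3 genotypes, CARD14 R820W/R820W, CARD14 KO and CARD14 WT/WT, without saying how many clones stand behind each. There were 5 groups of 3 libraries, lettered a, b and c. They were R820W cells and WT cells with 10 µM mepazine, a MALT1 inhibitor, for 24 h, and R820W, KO and WT cells with the vehicle DMSO. The labels list no KO cells with mepazine. The comparisons ask how mepazine changed the cells of each genotype and how R820W and KO cells differed from WT cells under vehicle.

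The libraries held 20630099 to 26974363 counts. Values are CPM, read counts scaled to a common library size with TMM factors, and 3 counts corresponded to 0.108 to 0.143 CPM. CARD14 itself had 45, 42 and 40 counts in KO libraries and 43, 24 and 37 in WT vehicle libraries, and it was not called in any comparison (KO against WT log2 fold change 0.21 ± 0.21, SE, edgeR adjusted p = 0.886). Counts per gene do not show an edited base or a frameshift, so they do not check the genotypes. The R820W mepazine libraries lay farthest out on the first principal component, which held 46.1% of the variance, with scores of 45.8 to 53.2, against 10.2 to 18.5 for R820W vehicle. All 8 keratinocyte markers on the list used were detected in every group. Their summed level was 3030 to 3240 CPM in R820W mepazine, 3520 to 3940 in WT mepazine, 2940 to 3200 in R820W vehicle, 3910 to 4500 in KO and 4050 to 4280 in WT vehicle.

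In cells with functional p53, damage or other stress stabilises the protein, which then switches on genes that stop the cell cycle, repair DNA, alter metabolism or lead to cell death. CDKN1A (p21) and BTG2 slow division, FAS is a death receptor, RRM2B supplies deoxynucleotides, ZMAT3 binds RNA, GDF15 is a secreted stress cytokine, and MDM2 is the ubiquitin ligase that returns p53 to low levels. TP53INP1 binds kinases that phosphorylate p53 and also binds ATG8 proteins of the autophagosome, and TP53INP2 (also called DOR) is an autophagy scaffold that binds ATG8 proteins. Most of these genes also answer to factors other than p53, among them TP63 and TP73 in epithelium, FOXO factors and the stress factor ATF4.

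The DNA around the start sites of 4 of these genes is shown because their levels set the groups apart in different comparisons. TP53INP2 and BTG2 were higher in R820W mepazine libraries, GDF15 rose in WT mepazine libraries, and CDKN1A rose in WT mepazine and R820W vehicle libraries. Each window runs from 250 bases before to 50 bases after a RefSeq start site (GRCh38.p14) and is printed 5′ to 3′ on the gene's strand, with any searched motif in capitals. The windows are chr20:34704094-34704393 (+) for TP53INP2, chr1:203305269-203305568 (+) for BTG2, chr19:18385908-18386207 (+) for GDF15 and chr6:36678464-36678763 (+) for CDKN1A.
TP53INP2: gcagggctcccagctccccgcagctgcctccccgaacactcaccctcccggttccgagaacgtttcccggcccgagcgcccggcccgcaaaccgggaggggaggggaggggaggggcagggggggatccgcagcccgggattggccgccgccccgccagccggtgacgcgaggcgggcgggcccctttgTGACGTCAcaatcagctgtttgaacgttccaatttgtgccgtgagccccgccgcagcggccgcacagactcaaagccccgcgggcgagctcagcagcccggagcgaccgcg
BTG2: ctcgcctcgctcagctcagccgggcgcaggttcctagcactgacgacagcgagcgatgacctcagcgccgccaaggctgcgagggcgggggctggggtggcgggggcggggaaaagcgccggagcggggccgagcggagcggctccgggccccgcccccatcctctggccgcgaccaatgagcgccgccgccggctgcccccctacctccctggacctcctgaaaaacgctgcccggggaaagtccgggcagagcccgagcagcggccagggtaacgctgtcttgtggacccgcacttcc
GDF15: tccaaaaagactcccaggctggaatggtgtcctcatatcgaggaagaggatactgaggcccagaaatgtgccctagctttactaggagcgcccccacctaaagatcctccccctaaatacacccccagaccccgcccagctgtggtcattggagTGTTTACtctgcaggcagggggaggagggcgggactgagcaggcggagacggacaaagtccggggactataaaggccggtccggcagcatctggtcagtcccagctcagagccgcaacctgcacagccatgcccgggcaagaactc
CDKN1A: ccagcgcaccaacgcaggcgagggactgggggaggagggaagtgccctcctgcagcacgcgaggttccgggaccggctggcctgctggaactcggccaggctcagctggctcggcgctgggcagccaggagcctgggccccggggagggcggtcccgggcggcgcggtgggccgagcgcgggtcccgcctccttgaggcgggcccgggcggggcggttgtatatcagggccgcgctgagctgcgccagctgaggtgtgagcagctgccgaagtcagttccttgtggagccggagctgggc

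RefSeq windows were used for 7 of the 9 genes, 14 windows in all, and those of TP53INP1 and RRM2B were not used here. Both strands were searched for the E-box CACGTG, the FOXO element GTAAACA, the ATF4 element TGATGNAA, the cyclic AMP response element TGACGTCA, which was added after the windows had been read, and the p53 half-site. The printed TP53INP2 window holds a cyclic AMP response element at base 190, a motif in 1.85% of all 35116 windows. Since this motif was added after the windows had been read, that share does not measure how unusual the match is. The other TP53INP2 window, chr20:34704469-34704768 (+), holds no match. The GDF15 window holds the FOXO element on the other strand at base 155, a motif in 3.42% of windows. Of the 3 FAS windows, the one at chr10:88991181-88991480 (+) holds a p53 half-site at base 129, found in 6.63% of windows. The E-box (7.26% of windows) and the ATF4 element (3.62%) had no match in the 14 windows, and no 2 matches overlapped. The half-site had to match its 10-base consensus exactly, so windows without a match may still hold p53 sites with mismatches. A match describes letters only and shows no binding.

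Under mepazine in R820W cells, both TP53INP genes and BTG2 stood above vehicle in every library, and the other 6 genes did not separate. TP53INP1 reached 8.39, 7.82 and 11.3 CPM in R820W mepazine libraries a, b and c, against 1.93, 0.889 and 1.56 CPM in R820W vehicle libraries. Its fitted difference was 6.23-fold, a log2 fold change of 2.64 ± 0.21 (SE), from 232, 168 and 305 counts against 50, 21 and 36. The 3 mepazine libraries all lay far above the highest vehicle library. In bulk libraries, more cells with a transcript and more of it per cell cannot be told apart, nor can fewer cells of a type and less RNA per cell.

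TP53INP2 stood at 3.58, 3.82 and 5.37 CPM in R820W mepazine libraries, against 0.851, 0.466 and 1.09 CPM in R820W vehicle libraries. The groups did not overlap, and the fitted difference was 5.3-fold (log2 fold change 2.41 ± 0.38, SE). BTG2, whose protein brings the CCR4-NOT deadenylase to mRNA, had 45.4, 40 and 49.5 CPM in R820W mepazine libraries and 29.2, 24.8 and 27.1 CPM in R820W vehicle libraries. The lowest mepazine library lay above the highest vehicle library, at a log2 fold change of 0.74 ± 0.07 (SE), or 1.67-fold. Of all 14971 genes, 26.0% had groups that did not overlap and were higher in R820W mepazine, and 22.1% were called higher and 46.8% in either direction at an adjusted p under 0.05.

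The other p53 targets among the 9 showed smaller differences in R820W cells. CDKN1A averaged 18.5 ± 0.882 CPM in R820W mepazine and 18.2 ± 0.0943 CPM in R820W vehicle (SD, n = 3 each), a log2 fold change of 0.03. MDM2 had 75.4 ± 6.04 CPM in R820W mepazine and 82.7 ± 2.5 CPM in R820W vehicle, with overlapping libraries. GDF15 was near the detection limit, with 6, 10 and 16 counts in R820W mepazine and 7, 6 and 6 counts in R820W vehicle. For FAS, ZMAT3 and RRM2B the log2 fold changes were -0.11, 0.08 and 0.14, all with overlapping libraries. The median log2 fold change of the 9 genes was 0.14, against 0.02 over all genes.

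**Figure D1:**
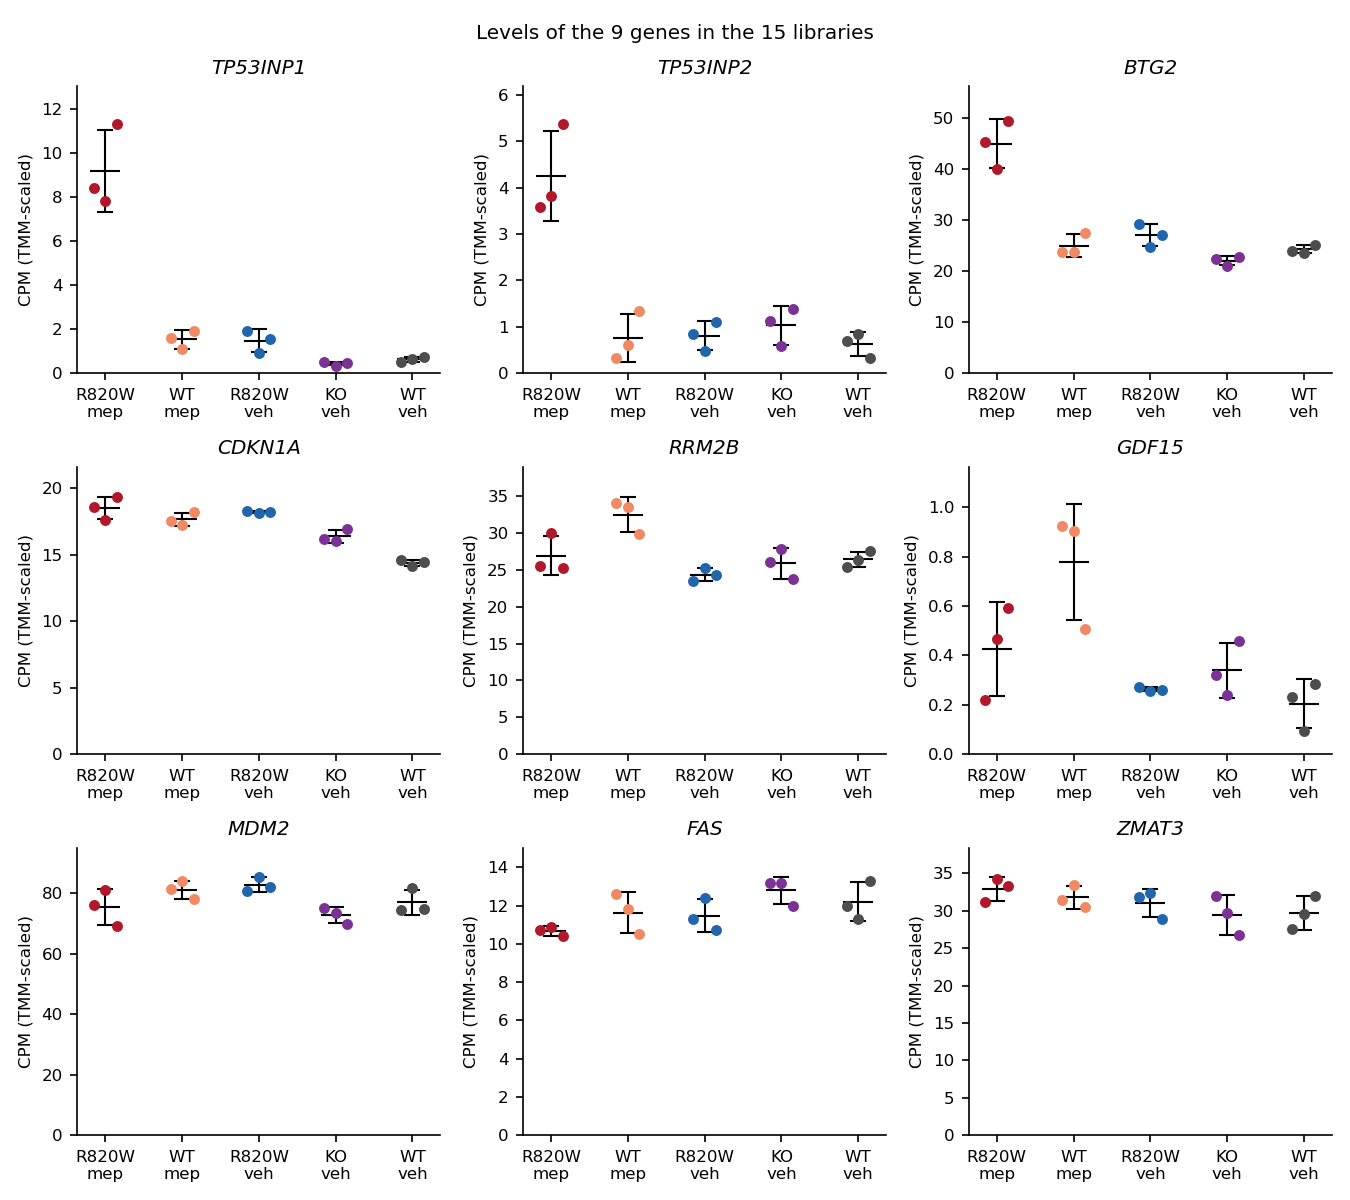
Level of each of the 9 genes in CPM (vertical axis, starting at 0) in every library, by group (mep, mepazine; veh, vehicle). Points are libraries and bars the mean and SD (n = 3). TP53INP1, TP53INP2 and BTG2 stand highest in the 3 R820W mepazine libraries, GDF15 and RRM2B have their highest means in WT mepazine, and CDKN1A is lowest in WT vehicle.

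Across the 5 groups, TP53INP1 was highest in R820W mepazine, at 9.17 ± 1.87 CPM (SD, n = 3). WT mepazine followed at 1.53 ± 0.431 CPM and R820W vehicle at 1.46 ± 0.53 CPM, whose libraries overlapped. WT vehicle had 0.625 ± 0.109 CPM and KO 0.424 ± 0.078 CPM, without overlap between them. TP53INP2 was highest in R820W mepazine at 4.26 ± 0.975 CPM, and the other groups, KO at 1.02 ± 0.409, R820W vehicle at 0.801 ± 0.313, WT mepazine at 0.756 ± 0.518 and WT vehicle at 0.626 ± 0.264 CPM, overlapped each other. For TP53INP2 the R820W mepazine libraries alone lay outside the range of the others.

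In WT cells, a comparison that the rule for the TP53INP pair did not use, mepazine was followed by higher levels of 4 of the 9 genes. TP53INP1, GDF15, CDKN1A and RRM2B rose, and TP53INP2, BTG2, MDM2, FAS and ZMAT3 did not pass the test. These 4 stand beside a background of 12.4% of all 14971 genes called higher in the same comparison. None of the 9 was called lower by edgeR, DESeq2 or limma-voom, and none had an unadjusted p under 0.05 in that direction (11.6% of all genes were called lower). The groups did not overlap for the same 4 genes, and 21.1% of all genes were higher without overlap.

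TP53INP1 had 1.59, 1.07 and 1.93 CPM in WT mepazine libraries, against 0.504, 0.659 and 0.714 CPM in WT vehicle libraries. All 3 mepazine libraries lay above the vehicle libraries, and the rise was 2.46-fold (log2 fold change 1.30 ± 0.30, SE, 95% interval 0.68 to 1.91, edgeR adjusted p = 0.00237). The counts behind it were 43, 25 and 42 in WT mepazine and 13, 14 and 15 in WT vehicle. TP53INP2, by contrast, had 0.332, 0.601 and 1.33 CPM in WT mepazine libraries and 0.697, 0.847 and 0.333 CPM in WT vehicle libraries. Its libraries overlapped, and the difference of 0.21 ± 0.50 (log2, SE) had a 95% interval of -0.86 to 1.29 (adjusted p = 0.805). Leaving out 1 library at a time moved the value from -0.45 to 0.59.

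GDF15, the secreted stress cytokine, was counted 25, 21 and 11 times in WT mepazine libraries, against 6, 2 and 6 times in WT vehicle libraries, or 0.922, 0.902 and 0.506 CPM against 0.232, 0.0941 and 0.285 CPM. The groups did not overlap, and the difference of 3.75-fold (log2 fold change 1.91 ± 0.43, SE, edgeR adjusted p = 0.00177) rests on these few reads. DESeq2 gave GDF15 no adjusted p, and a filter of 1 CPM in 3 libraries removed it. CDKN1A, the cyclin-dependent kinase inhibitor p21, had 17.5, 17.2 and 18.2 CPM in WT mepazine libraries, against 14.6, 14.1 and 14.4 CPM in WT vehicle libraries. The spread inside each group was small, and the rise was 1.23-fold (log2 fold change 0.30 ± 0.06, SE, adjusted p = 0.00128).

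RRM2B, the p53-inducible small subunit of ribonucleotide reductase, had 34.1, 33.6 and 29.8 CPM in WT mepazine libraries, against 25.4, 26.4 and 27.5 CPM in WT vehicle libraries. It rose 1.23-fold (log2 fold change 0.30 ± 0.07, SE, adjusted p = 0.0024). BTG2 averaged 25 ± 2.2 CPM in WT mepazine and 24.2 ± 0.774 CPM in WT vehicle, a log2 difference of 0.04 with a 95% interval of -0.12 to 0.20 (adjusted p = 0.729). MDM2, whose transcription is one of the most direct readouts of active p53, differed by 0.08 ± 0.05 (log2, SE, 95% interval -0.03 to 0.19, adjusted p = 0.323). ZMAT3 differed by 0.10 (adjusted p = 0.306) and FAS by -0.07 (adjusted p = 0.62). The median over the 9 genes was 0.21, and that over all genes 0.02.

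**Figure D2:**
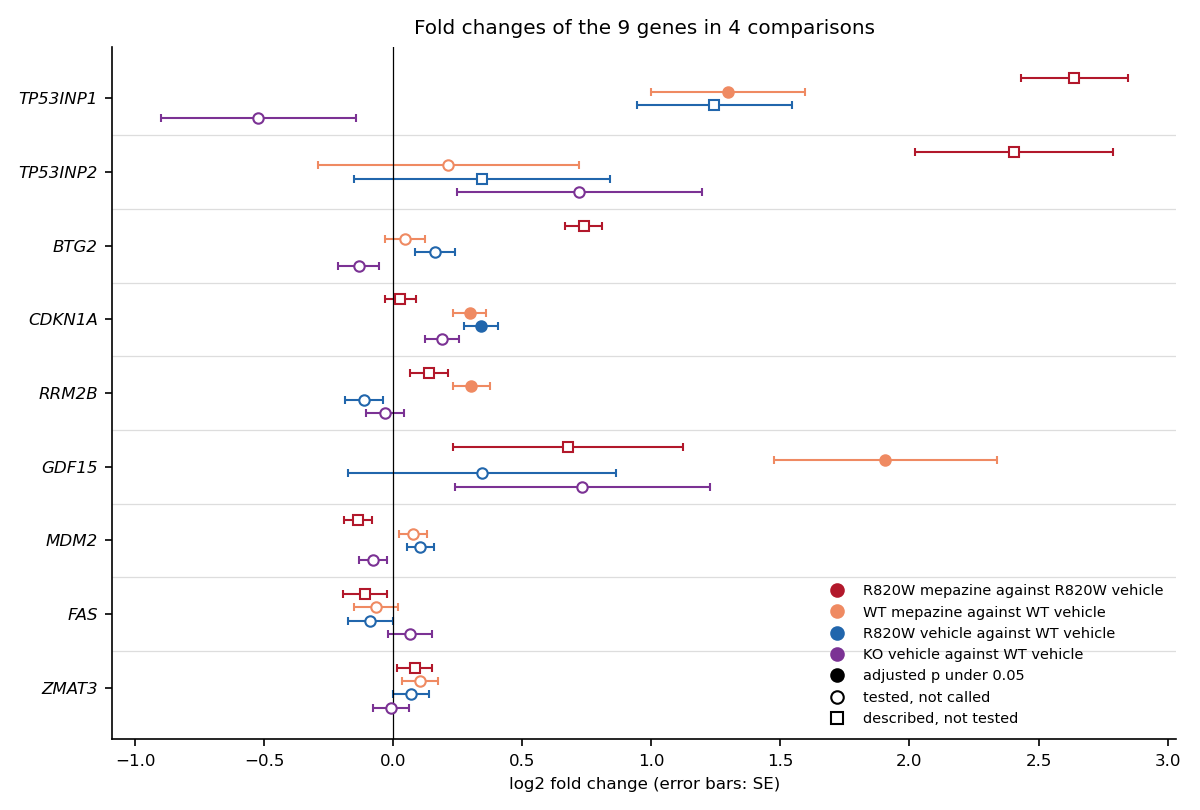
Log2 fold changes (horizontal axis) of the 9 genes in 4 comparisons, with SE bars. Filled circles passed an adjusted p of 0.05, open circles did not, and open squares were not tested because the genes had been chosen on that comparison or pattern. TP53INP1, CDKN1A, RRM2B and GDF15 are filled for WT mepazine against WT vehicle and CDKN1A for R820W against WT vehicle. No KO value is filled.

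The size of the mepazine response in R820W cells minus that in WT cells is given on the log2 scale with its SE and no test. It was 2.19 ± 0.649 for TP53INP2, 1.34 ± 0.385 for TP53INP1 and 0.69 ± 0.106 for BTG2. Of all genes, 3.85% had responses that differed in either direction by the test of the difference, 0.788% with a larger and 3.07% with a smaller response in R820W. Leaving out WT mepazine library c raised the TP53INP2 value to 2.86, since that library alone held 29 of its counts, against 9 and 14 in the other WT mepazine libraries. For GDF15 the value was -1.23 ± 0.641, resting on 2 to 25 counts per library. The remaining values were -0.27 ± 0.0893 for CDKN1A, -0.21 ± 0.0747 for MDM2, -0.16 ± 0.101 for RRM2B, -0.04 ± 0.121 for FAS and -0.02 ± 0.0972 for ZMAT3. CDKN1A was already at 18.2 CPM in R820W vehicle, close to the 17.7 ± 0.505 CPM of WT mepazine.

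Under vehicle, R820W cells differed from WT cells in CDKN1A among the 7 genes tested, while 10.6% of all genes were called higher and 8.61% lower. CDKN1A had 18.3, 18.1 and 18.2 CPM in R820W vehicle libraries, against 14.6, 14.1 and 14.4 CPM in WT vehicle libraries. It rose by 0.34 ± 0.06 (log2, SE, edgeR adjusted p = 0.000276), and the groups did not overlap. BTG2 differed by 0.16 (unadjusted p = 0.047, adjusted p = 0.158), MDM2 by 0.11 (adjusted p = 0.182), GDF15 by 0.34 (adjusted p = 0.715) and ZMAT3 by 0.07 (adjusted p = 0.563). RRM2B had 23.5 to 25.3 CPM in R820W and 25.4 to 27.5 CPM in WT vehicle, without overlap but also without a call (log2 fold change -0.11, adjusted p = 0.315), and FAS differed by -0.09 (adjusted p = 0.538). None of the 7 was called lower by edgeR, DESeq2 or limma-voom, nor at an unadjusted p under 0.05. Groups without overlap made up 18.1% of all genes in the higher and 18.1% in the lower direction.

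For the pair, given as a description, TP53INP1 had 1.93, 0.889 and 1.56 CPM in R820W vehicle and 0.504, 0.659 and 0.714 CPM in WT vehicle libraries, 2.37-fold by the fit and without overlap. TP53INP2 overlapped between these groups, at a log2 fold change of 0.34. This comparison and the WT mepazine comparison share the WT vehicle libraries, so their values for TP53INP1 (1.24 and 1.30) and CDKN1A (0.34 and 0.30) stand side by side and are no independent pair of observations.

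In KO cells none of the 9 genes was called against WT under vehicle by edgeR, DESeq2 or limma-voom, where 0.374% of all genes were called, 0.287% higher and 0.0868% lower. CDKN1A had an unadjusted p of 0.00746 (adjusted p = 0.391), the only value under 0.05, at a log2 fold change of 0.19 with a 95% interval of 0.06 to 0.32. Its KO libraries held 16.2, 16 and 16.9 CPM, above the 14.6, 14.1 and 14.4 CPM of WT vehicle libraries. TP53INP1 had 0.479, 0.335 and 0.459 CPM in KO libraries, from 12, 7 and 12 counts, against 0.504, 0.659 and 0.714 CPM in WT vehicle libraries. The KO values lay below all WT values, but the difference of -0.52 ± 0.38 (log2, SE, adjusted p = 0.837) was within the error of so few counts. BTG2 was lower without overlap (22 ± 0.899 CPM in KO, 24.2 ± 0.774 CPM in WT, adjusted p = 0.743). Groups without overlap made up 7.34% of all genes in the higher and 5.23% in the lower direction.

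Among 38 other p53 target genes that passed the filter, of 40 listed, mepazine was followed by rises and falls in similar numbers. In WT cells 7 rose and 9 fell, where 12.4% of all genes rose and 11.6% fell. In R820W cells 14 rose and 13 fell, where 22.1% of all genes rose and 24.8% fell. The median log2 fold changes were 0.04 in WT and 0.01 in R820W cells, beside 0.02 in each over all genes. Of the 16 genes called in WT cells, 14 were called in R820W cells in the same direction (6 higher, 8 lower), or 87.5% of the WT calls and 51.9% of the 27 R820W calls, and none in the opposite direction. Over all genes the shares were 85.1% of WT calls and 43.5% of R820W calls. The 2 mepazine comparisons have no library in common.

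TRIM22, an interferon- and p53-inducible ubiquitin ligase, had 25.5 ± 3.08 CPM in R820W mepazine and 9.8 ± 2.23 CPM in R820W vehicle (log2 fold change 1.38, edgeR adjusted p = 1.3e-05). In WT cells it had 7.2 ± 1.1 CPM with mepazine and 3.5 ± 1.01 CPM with vehicle (1.06, adjusted p = 0.00368). ACER2, an alkaline ceramidase, rose by 1.18 in R820W cells (adjusted p = 2.68e-06) and by 0.75 in WT cells (adjusted p = 0.00544). RPS27L, a ribosomal protein relative, rose by 0.52 in WT cells (adjusted p = 0.000853), and TP53I3, an oxidoreductase-like target, rose by 0.67 in R820W cells (adjusted p = 0.000127).

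The 3 genes with the largest falls were shared by both genotypes. AEN, an apoptosis-enhancing nuclease, had 23.1 ± 1.23 CPM in R820W mepazine and 42.7 ± 0.382 CPM in R820W vehicle (log2 fold change -0.88, edgeR adjusted p = 1.6e-12), and 34.9 ± 1.91 CPM in WT mepazine and 48.4 ± 1.13 CPM in WT vehicle (-0.47, adjusted p = 1.48e-07). PLK3, a stress-responsive polo-like kinase, fell by 0.76 in R820W cells (adjusted p = 2.51e-08) and by 0.34 in WT cells (adjusted p = 0.00202). TNFRSF10A, a TRAIL death receptor, fell by 0.65 (adjusted p = 1.36e-07) and by 0.35 (adjusted p = 0.00102) in these genotypes. TP53INP1 was higher with mepazine in both genotypes, in R820W cells by the way it was picked. A link between it and these falls was not tested.

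**Figure D3:**
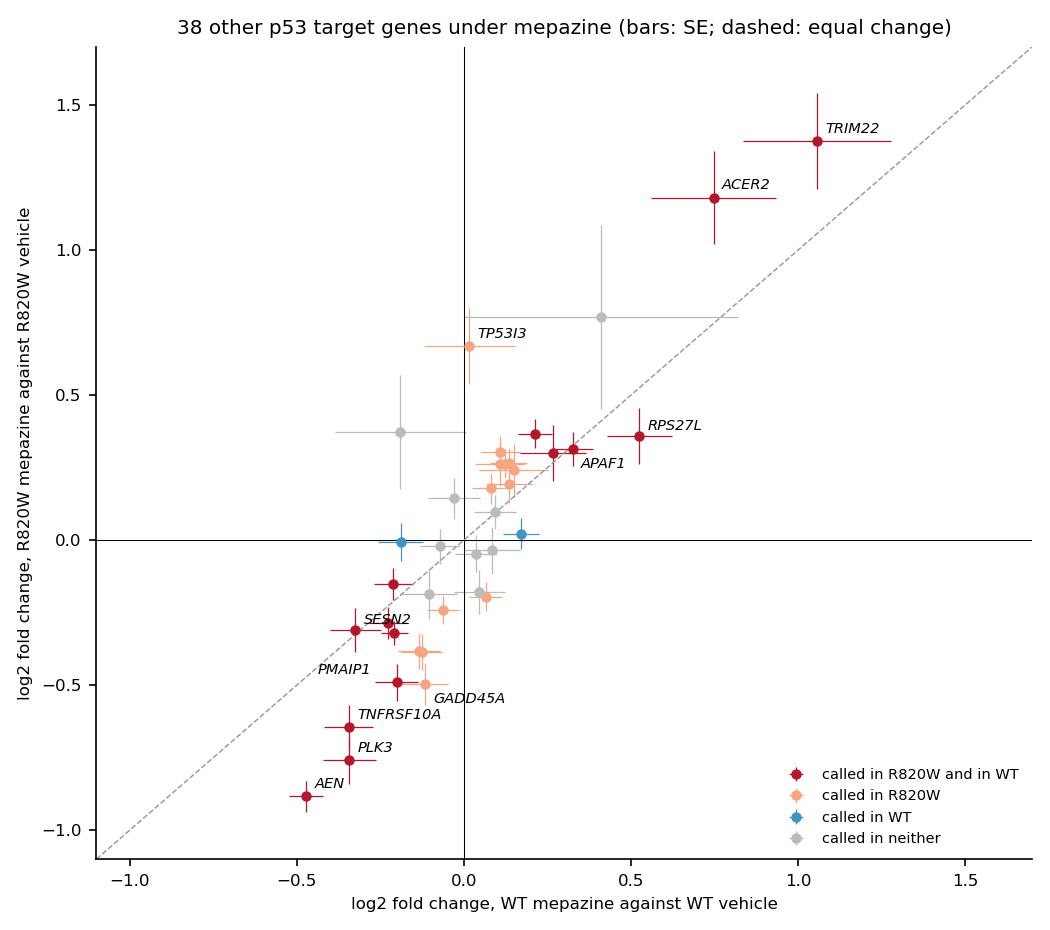
Log2 fold change under mepazine of 38 other p53 target genes in WT cells (horizontal axis) and in R820W cells (vertical axis), with SE bars, coloured by the genotypes in which each was called. The dashed line marks equal change. TRIM22 and ACER2 lie at the upper right and AEN, PLK3 and TNFRSF10A at the lower left.

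Under vehicle, 8 of the 38 other targets were higher and 2 lower in R820W than in WT cells, beside 10.6% and 8.61% of all genes. TRIM22 rose by 1.51 (edgeR adjusted p = 0.000167) and ACER2 by 0.68 (adjusted p = 0.0124), a call lost without R820W vehicle a (0.51) or WT vehicle c (0.65). TP53I11 averaged 3.29 ± 1.07 CPM in R820W and 1.42 ± 0.612 CPM in WT vehicle (log2 fold change 1.22, adjusted p = 0.041), and that call was lost without WT vehicle a or b or R820W vehicle a or c (0.99 to 1.58 over the 6 libraries left out). SFN and AEN were lower, by -0.20 and -0.18 (adjusted p = 0.012 for each). The SFN call was lost without R820W vehicle c or WT vehicle a (-0.24 to -0.15), and the AEN call without WT vehicle a (-0.20 to -0.17 over the 6 libraries left out). In KO cells SESN2, a sestrin, was the only call, at 13.5 ± 0.541 CPM in KO and 17.2 ± 2.01 CPM in WT (log2 fold change -0.35, adjusted p = 0.0257), and it was lost with DESeq2, with limma-voom, with a fit of the 2 groups alone, and without KO a, b or c or WT a or b (-0.43 to -0.26).

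TP63, the p53 relative that maintains basal keratinocytes, had 98.5 ± 0.464 CPM in R820W vehicle and 128 ± 2.57 CPM in WT vehicle (log2 fold change -0.38, edgeR adjusted p = 2.45e-07). It rose with mepazine by 0.41 in R820W cells (adjusted p = 2.96e-08) and by 0.21 in WT cells (adjusted p = 0.000762).

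TP73, the other p53 relative, was lower in R820W cells, at 0.758 ± 0.034 CPM, against 3.09 ± 0.601 CPM in WT vehicle (log2 fold change -2.01 ± 0.21, SE, edgeR adjusted p = 3.3e-08). With mepazine it had 1.87 ± 0.0347 CPM in R820W cells, a rise of 1.29 (adjusted p = 2.85e-05). In WT cells it had 4.55 ± 0.738 CPM with mepazine, a rise of 0.56 (adjusted p = 0.0132) whose call was lost without WT mepazine c or WT vehicle a or b (0.44 to 0.73). TP73-AS1 lies on its other strand, with 153 to 302 counts and log2 fold changes of 0.17 between R820W and WT vehicle and 0.30 under mepazine in R820W. Without a stated strand setting the reads of the 2 genes cannot be told apart.

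Of the 19 p53 family genes and regulators tested, 12 rose and 5 fell under mepazine in R820W cells, 5 rose and 1 fell under mepazine in WT cells, and 5 were higher and 3 lower in R820W than in WT vehicle. Over all genes 22.1% were called higher and 24.8% lower under mepazine in R820W cells, 12.4% and 11.6% under mepazine in WT cells, and 10.6% and 8.61% between R820W and WT vehicle. None was called in KO cells by edgeR, DESeq2 or limma-voom, with 0 higher and 2 lower at an unadjusted p under 0.05. PRKCD, a protein kinase C that phosphorylates p53 with the help of TP53INP1, had 35.1 ± 2.1 CPM in R820W mepazine, against 25.5 ± 2.87 CPM in R820W vehicle (log2 fold change 0.46, adjusted p = 0.000129). It had 16.3 ± 2.5 CPM in WT mepazine and 18.3 ± 1.27 CPM in WT vehicle, a difference of -0.17 (adjusted p = 0.228) that was called without WT mepazine c (-0.29). The response was larger in R820W cells by 0.63 ± 0.13 (log2, SE, adjusted p = 0.011).

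HIPK2, another p53 kinase bound by TP53INP1, rose by 0.47 in R820W mepazine (edgeR adjusted p = 0.0328). That call was lost with DESeq2, with no filter and without R820W mepazine a or c or R820W vehicle b or c (0.37 to 0.57). ATM, the DNA damage kinase, rose by 0.35 in WT mepazine (adjusted p = 5.01e-05). USP7, the deubiquitinase of MDM2 and p53, fell by 0.31 in R820W mepazine (adjusted p = 6.27e-07) and by 0.15 in WT mepazine (adjusted p = 0.00739). RCHY1, a ubiquitin ligase of p53, had 17.1 ± 2.27 CPM in R820W mepazine and 21.1 ± 0.211 CPM in R820W vehicle (-0.31, adjusted p = 0.00173), and the checkpoint kinase CHEK1 had 57.8 ± 4.57 and 67.2 ± 1.9 CPM (-0.22, adjusted p = 0.00142). CDKN2A, which encodes the cell cycle inhibitors p16 and ARF, was higher in R820W than in WT vehicle, at 37.7 ± 3.1 and 28.4 ± 0.892 CPM (0.40, adjusted p = 2.17e-05). PPP1R13B, the p53-binding protein ASPP1, was also higher there, at 32.3 ± 1.81 and 27.9 ± 1.27 CPM (0.21, adjusted p = 0.0298), a call lost with DESeq2 and without R820W vehicle a or c or WT vehicle b or c (0.17 to 0.25).

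**Figure D4:**
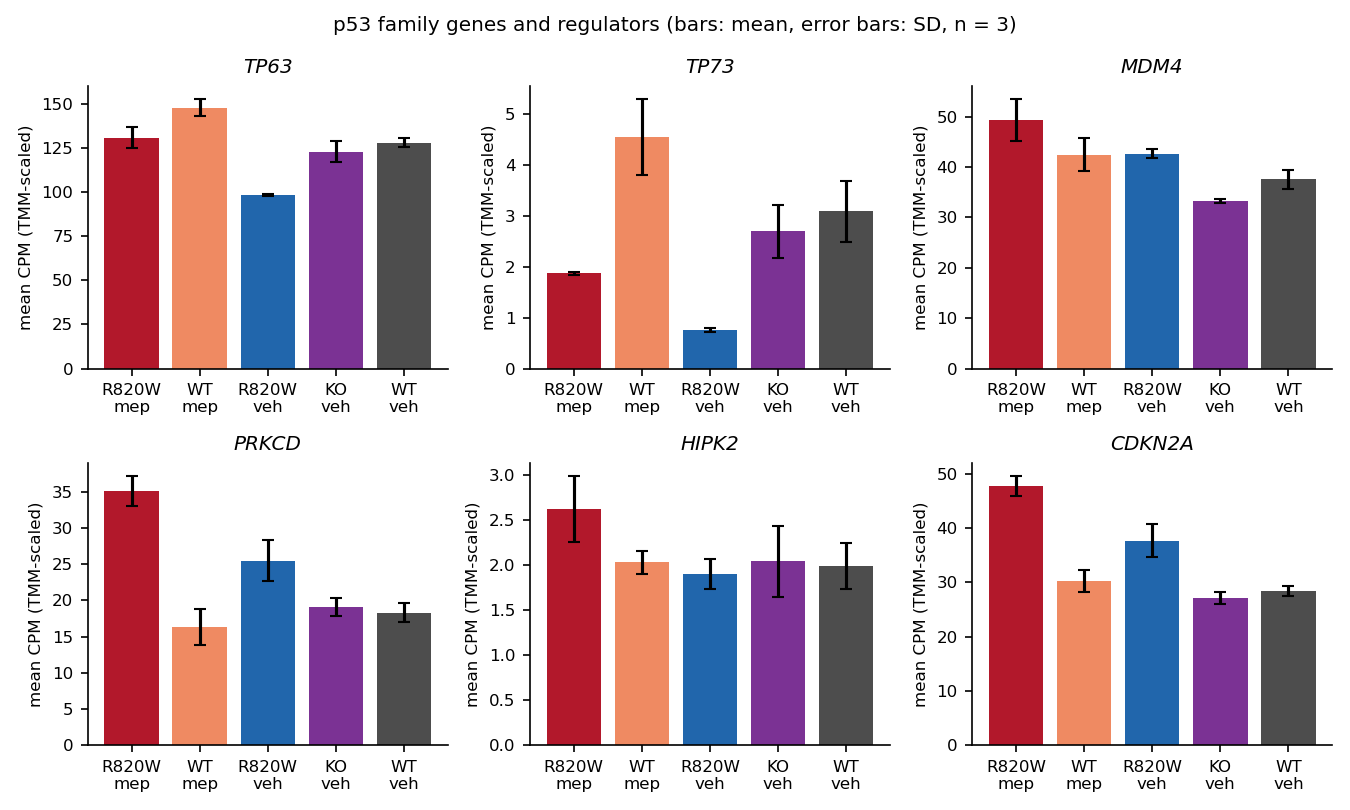
Mean level in CPM (vertical axes, from 0) of 6 p53 family genes and regulators by group, with SD bars (n = 3). TP73 is lowest in R820W vehicle at 0.758 CPM, TP63 is lowest there at 98.5 CPM, and PRKCD is highest in R820W mepazine at 35.1 CPM.

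Genes that p21 represses through the DREAM complex, mostly mitotic regulators, were read next to CDKN1A. The log2 fold change of CDKN1A under mepazine was 0.03 in R820W cells, given with no test. In WT cells it was 0.30 (edgeR adjusted p = 0.00128). A link between CDKN1A and the changes of these genes was not tested. Of 12 tested, 9 fell and 2 rose under mepazine in R820W cells, and 2 fell and 2 rose in WT cells. Over all genes 24.8% fell and 22.1% rose in R820W cells, and 11.6% fell and 12.4% rose in WT cells. CDC20, the activator of the anaphase-promoting complex, had 227 ± 2.71 CPM in R820W mepazine and 293 ± 6.53 CPM in R820W vehicle (log2 fold change -0.37, edgeR adjusted p = 2.87e-08), and 281 ± 7.52 CPM in WT mepazine and 324 ± 11.8 CPM in WT vehicle (-0.20, adjusted p = 0.000404). CENPF, a kinetochore protein, rose by 0.18 in R820W mepazine (adjusted p = 0.00188) and by 0.21 in WT mepazine (adjusted p = 0.00101). The phosphatase CDC25C, which activates CDK1, rose by 0.23 in R820W mepazine (adjusted p = 0.00451) and by 0.21 in WT mepazine (adjusted p = 0.0205). The WT call was lost with DESeq2 and without WT mepazine a or c or WT vehicle a or b (0.16 to 0.24). The transcription factor MYBL2 had 160 ± 4.09 CPM in WT mepazine and 178 ± 3.39 CPM in WT vehicle (-0.16, adjusted p = 0.00616). The mitotic kinase PLK1 and the cyclin CCNB1 fell by 0.31 and 0.28 in R820W mepazine (adjusted p = 8.43e-07 and 8.78e-07). Between R820W and WT vehicle 1 of the 12 was lower and none higher, by edgeR, DESeq2, limma-voom or at an unadjusted p under 0.05. The gene was CDC20 (-0.14, edgeR adjusted p = 0.0104), whose call was lost without R820W vehicle a or WT vehicle a (-0.16 to -0.11).

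The ATG8 proteins and other autophagy partners that the TP53INP proteins bind gave 5 tested genes. Of these, 3 rose under mepazine in each genotype and none fell by edgeR, DESeq2, limma-voom or at an unadjusted p under 0.05. Over all genes 22.1% rose in R820W cells and 12.4% in WT cells. GABARAPL1, an ATG8 protein, had 47.5 ± 4.72 CPM in R820W mepazine and 22.8 ± 2.4 CPM in R820W vehicle (log2 fold change 1.06, edgeR adjusted p = 1.36e-11). In WT cells it had 38.1 ± 0.708 CPM with mepazine and 24.8 ± 0.972 CPM with vehicle (0.62, adjusted p = 5.42e-07). It has near-identical relatives, so some of its reads may be shared. GABARAP rose by 0.57 in R820W cells (adjusted p = 9.31e-06) and by 0.37 in WT cells (adjusted p = 0.00237). MAP1LC3B, the ATG8 protein most used as an autophagosome marker, rose by 0.16 in R820W cells (adjusted p = 0.00819), a call lost without R820W vehicle c. In WT cells it rose by 0.17 (adjusted p = 0.0135), a call lost without WT mepazine a or WT vehicle a. None of the 5 was called between genotypes under vehicle, by the 3 tools or at an unadjusted p under 0.05. In WT mepazine libraries, where GABARAPL1 rose, TP53INP2 did not pass the test. With 7 to 29 counts per WT library, its log2 fold change had a 95% interval of -0.86 to 1.29, which spans falls and rises. A link between TP53INP2 and GABARAPL1 was not tested.

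Relatives and partners of the 9 genes gave 11 tested genes, of which 4 rose and 4 fell in R820W mepazine and 3 rose and 1 fell in WT mepazine. Over all genes 22.1% rose and 24.8% fell in R820W mepazine, and 12.4% rose and 11.6% fell in WT mepazine. RRM2, the replicative counterpart of RRM2B, fell in both genotypes, with 245 ± 16 CPM in R820W mepazine and 336 ± 5.59 CPM in R820W vehicle (log2 fold change -0.46, edgeR adjusted p = 3.19e-09), and 301 ± 8.13 CPM in WT mepazine and 346 ± 9.52 CPM in WT vehicle (-0.20, adjusted p = 0.00113). BTG1, the closest relative of BTG2, rose by 0.44 in R820W mepazine (adjusted p = 9.18e-06), while BTG3 fell by 0.37 (adjusted p = 0.000402). CASP10 and CFLAR, which act downstream of FAS, rose by 0.46 and 0.40 in R820W mepazine (adjusted p = 0.000268 and 2.73e-06), and FADD, the FAS adaptor, fell by 0.29 (adjusted p = 4.62e-05). In WT mepazine CASP10 rose by 0.41 (adjusted p = 0.00609), a call lost without WT vehicle a (0.29 to 0.48 over the libraries left out). CDKN1B, the p21 relative p27, rose there by 0.19 (adjusted p = 0.0129), a call lost without WT mepazine c or WT vehicle a or b (0.14 to 0.26). TOB1, a relative of BTG2, had 42.6 ± 1.31 CPM in R820W vehicle and 35.9 ± 2.69 CPM in WT vehicle (0.25, adjusted p = 0.00351). CASP10 was also higher in R820W than in WT vehicle (0.55, adjusted p = 0.000345), where FAS was not called.

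The genes whose profile over the 15 libraries was most like that of TP53INP1, among 10604 compared, were PRODH, TNFSF10, FAM49A, TRANK1 and CDKN2B. Likeness was the root mean square difference of the log2 CPM profiles after each gene's own mean was subtracted, and ran from 0.394 for PRODH to 0.495 for CDKN2B. PRODH, a mitochondrial proline dehydrogenase, had 16.1 ± 2.93 CPM in R820W mepazine, 5.49 ± 2.1 in WT mepazine, 3.57 ± 1.25 in R820W vehicle, 1.55 ± 0.492 in KO and 1.52 ± 0.365 in WT vehicle. TNFSF10, the death ligand TRAIL, had 103 ± 26.7 CPM in R820W mepazine, 25.5 ± 9.12 in WT mepazine, 32.2 ± 10.7 in R820W vehicle, 13.5 ± 2.73 in KO and 12.9 ± 2.84 in WT vehicle. CDKN2B encodes the cell cycle inhibitor p15, and its means were 68.6 CPM in R820W mepazine and 20.4 to 22.8 CPM in WT mepazine and R820W vehicle.

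For TP53INP2 the nearest profiles were CALCOCO1, MXD4, UBA7, TXNIP and ST6GALNAC1, at 0.665 to 0.694. They were less close than those of TP53INP1, and TP53INP2 had only 7 to 36 counts in each library outside R820W mepazine. CALCOCO1, a coactivator and autophagy receptor, had 22.3 ± 4.8 CPM in R820W mepazine, 7.86 ± 0.491 in WT mepazine, 9.33 ± 1.16 in R820W vehicle, 5.85 ± 1.13 in KO and 6.04 ± 0.767 in WT vehicle. TXNIP, a thioredoxin-binding arrestin, had 38.3 ± 11.8 CPM in R820W mepazine and 10.6 ± 1.45 CPM in WT mepazine. Its WT vehicle level was 13.9 ± 1.86 CPM.

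**Figure D5:**
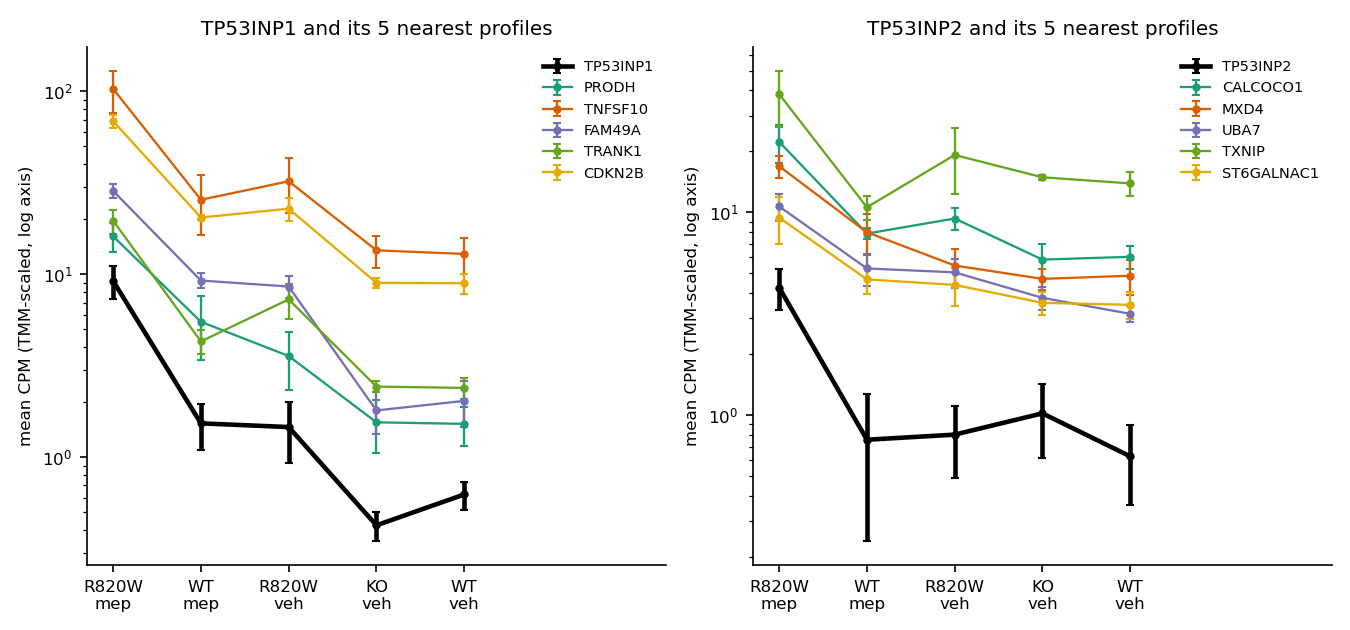
Mean level in CPM (log axis) of TP53INP1, TP53INP2 and the 5 genes with the nearest profile to each, by group, with SD bars (n = 3); lines only join the points of a gene. The genes beside TP53INP1 follow its order of high, middle and low groups, while TP53INP2 stands at 4.26 CPM in R820W mepazine and at 0.626 to 1.02 CPM elsewhere.

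The fibroblast and endothelial marker sums were highest in the R820W mepazine libraries. The summed level of 6 fibroblast markers was 23.4 to 33.2 CPM in R820W mepazine, 3.44 to 5.15 in WT mepazine, 5.33 to 11.1 in R820W vehicle, 2.34 to 2.87 in KO and 2.47 to 2.63 in WT vehicle. It was carried by LUM, DCN and COL1A1, while the fibroblast collagens COL1A2 and COL3A1 had 0 to 3 counts in any group of 3 libraries. The sum of 4 endothelial markers was 22.2 to 35.9 CPM in R820W mepazine, 10.1 to 13.3 in WT mepazine, 7.7 to 10.5 in R820W vehicle, 4.78 to 5.5 in KO and 4.42 to 6.95 in WT vehicle, mostly CDH5, with KDR at 0 or 1 counts per group. The sum of 5 melanocyte markers was 13.5 to 14.5 CPM in R820W mepazine, 11 to 11.1 in WT mepazine, 16.2 to 18.1 in R820W vehicle, 11.4 to 15.1 in KO and 11.8 to 13.4 in WT vehicle, and TYR and DCT were at 0 in every library. MITF, which made up most of it, fell with mepazine by 0.38 in R820W cells (edgeR adjusted p = 0.000698) and by 0.30 in WT cells (adjusted p = 0.0188), the second call being lost without WT mepazine c or WT vehicle a (-0.33 to -0.27). It was higher by 0.41 in R820W than in WT vehicle (adjusted p = 0.00104). The 5 leukocyte markers summed to at most 1.89 CPM. The part of these markers in the TP53INP results was not tested.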

How the data were processed

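Total RNA of 15 HaCaT libraries was sequenced with a directional kit, per the labels' protocols. The authors deposited 1 table of raw read counts per gene symbol with no normalisation. FastQC, MACS2, DESeq2 and hg19 appear in the submitters' processing notes, without a role. Aligner, counter, annotation and strand handling were not given in the sources used here, and genes that overlap, run antisense or have close copies may therefore share reads. Of 28518 symbols, 5618 had 0 counts throughout.

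Genes were filtered with filterByExpr (minimum count 10), scaled by TMM and fitted in edgeR 4.0.16 (R 4.3.3, limma 3.58.1) with all 15 libraries and group as the only term. Robust quasi-likelihood tests were two-sided, with Benjamini-Hochberg adjustment over 14971 genes and calls at an adjusted p under 0.05. DESeq2 1.42.0, limma-voom, DESeq2 size factors, other filters, fits of the compared groups alone, a replicate block and leaving out each library were the alternatives. The model was tested on simulated data. The log2 CPM profiles used a prior count of 2, and genes compared with them had a mean of at least 5 CPM.

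The 9 genes and all lists were chosen with earlier results of these data known. Named were the 9 genes, the called genes with the 3 largest rises and 3 largest falls of each list in each comparison, and the 5 nearest profiles, though not in every comparison that picked them. Another gene of the rule is not reported here. Values of TP63, PRKCD, CDKN2A, MDM4, E2F7, ITGB4 and MITF outside this rule were chosen after they had been seen. The list symbols of TIGAR, SUSD6 and COP1 were found under the older names C12orf5, KIAA0247 and RFWD2. The design speaks of 3 independent experiments but the labels do not tie the letters to them, and p-values therefore measure only the spread among the libraries, some of which may be technical. Floors cover counting error only. Antisense overlaps were taken from GENCODE v29.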

Additional observations from a re-analysis of the deposited data

Results flagged for a closer look

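Between the 2 genotypes, the mepazine response differed by an interaction test (edgeR, adjusted p under 0.05) for 12 listed genes, the keratinocyte marker ITGB4 among them. Of all genes, 3.85% differed in either direction, 0.788% with a positive and 3.07% with a negative difference. By list, 1 positive and 4 negative differences were among 38 other p53 targets, and 1 positive among 19 p53 family genes and regulators. A further 2 negative ones were among 12 DREAM genes and 2 negative among 11 relatives and partners. The last were 1 positive among 5 autophagy partners and 1 positive among 8 keratinocyte markers. The response in R820W minus that in WT, on the log2 scale, was 0.63 for PRKCD and -0.41 for AEN, and these calls were kept in every alternative run. It was 0.43 for GABARAPL1 and -0.26 for RRM2. The RRM2 call was lost without R820W mepazine c, WT mepazine b, R820W vehicle b or WT vehicle a (-0.31 to -0.22 over the libraries left out), and the GABARAPL1 call without these 4 libraries or R820W vehicle c (0.35 to 0.53).

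ITGB4, the hemidesmosome integrin, had 444 ± 25.6 CPM in R820W mepazine and 378 ± 14.1 in R820W vehicle, and 392 ± 15.5 in WT mepazine and 411 ± 3.22 in WT vehicle. Its difference of 0.30 lost the call without R820W vehicle b (0.26 to 0.34). The p53 target E2F7, a repressor of the cell cycle, had 38.8 ± 1.45 CPM in R820W mepazine and 44.4 ± 0.62 in R820W vehicle, and 46.9 ± 0.571 in WT mepazine and 44.8 ± 1.65 in WT vehicle. Its difference of -0.26 lost the call in 9 of the 12 fits that left a library out (-0.28 to -0.23).

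The other 6 calls were lost in 6 to 11 of these 12 fits, and each library except R820W mepazine b decided at least 1 of them. TP53I3 (0.65) lost its call in 9 of these fits, with values of 0.53 to 0.78. PLK3 (-0.42) lost it in 8 (-0.49 to -0.37) and GADD45A (-0.38) in 6 (-0.44 to -0.31). PLK1 (-0.21) lost it in 10 (-0.23 to -0.18), CCNB1 (-0.19) in 11 (-0.22 to -0.17) and BTG3 (-0.38) in 10 (-0.45 to -0.33). With another tool or scaling, BTG3 lost its call with DESeq2, limma-voom and DESeq2 size factors, CCNB1 and PLK1 with DESeq2 size factors, PLK3 with DESeq2 and TP53I3 with limma-voom.

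Under vehicle, the values of TP53INP1 lay on opposite sides of WT in the 2 edited genotypes. In R820W against WT its fitted log2 value was 1.24, with every R820W library above every WT library, and it was -0.52 in KO against WT, with every KO library below. Both comparisons use the same WT libraries, the KO value was not called, and the difference between them was not tested. The R820W vehicle libraries were among those behind the choice of TP53INP1. Of all genes, 18.1% were higher without overlap in R820W against WT, and 5.23% were lower without overlap in KO against WT.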

How the results depend on the processing

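No result reversed. Calls of the 9 genes were steady: 4 rose in WT mepazine in every setting except DESeq2 and the filter of 1 CPM in 3 libraries, which gave 3 because GDF15 had no adjusted p or was removed. CDKN1A was the 1 gene called in R820W against WT, and none was called in KO against WT, in all settings. For KO against WT, 56 genes were called, 103 with a replicate block and 22 to 51 with 1 library left out. Its call among the other p53 targets went to 0 with DESeq2, limma-voom or a fit of the 2 groups alone, and to 0 to 1 with a library left out. The difference of mepazine responses gave 577 calls, 1401 with the block, 894 with no filter and 137 to 1362 with a library left out. Its higher calls among the other targets went from 1 to 0 with limma-voom and to 0 to 2 with a library left out, and its lower calls from 4 to 7 with the block and to 1 to 7. For R820W against WT, higher calls among the other targets ranged from 5 to 7 and lower calls from 0 to 3 with a library left out. The cause was not tested. Whether the letters pair the libraries was not settled, and the main fit left them out. Over 30 same-letter pairs the correlation of deviations from the group means had a median of 0.0513 (-0.027 to 0.156). For pairs with other letters the median was -0.0251. On average 14 of 15 libraries were nearest to their own letter, a hint of pairing from the data, not the design. The replicate block changed no call of the 9 genes. Depth limits GDF15, TP53INP1 and TP53INP2, which had as few as 2 and 7 counts in a library.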
